A study of Saccharomyces cerevisiae with 9 samples.

Results

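Messenger RNA levels of the autophagy genes and of the main vacuolar peptidases of budding yeast were described in cells with and without the RNA methyltransferase gene IME4, in rich medium and in sporulation medium. The set holds every gene whose annotated symbol is ATG followed by a number, together with the peptidase genes PEP4, PRB1, PRC1, CPS1 and LAP4, which the annotation lists under its newer name APE1. These rules gave 39 genes, 34 ATG genes and 5 peptidase genes, among the 5311 genes measured, and each of the 39 was read by 1 probe set. Autophagy genes listed under other names, such as VPS30 (also called ATG6) and SNX4 (also called ATG24), did not match the rule and are given separately. All cells were of the SK1 strain, which sporulates readily and is widely used for work on yeast meiosis. Total RNA, 600 ng per array, was hybridised to 9 Affymetrix arrays in 4 groups. The groups were ime4-/- cells moved to SPO, a sporulation medium of 1% potassium acetate, for 4 hours (n = 2), wild-type (WT) cells treated in the same way (n = 3), ime4-/- cells in YPD, a rich medium with glucose (n = 2), and WT cells in YPD (n = 2). The ime4-/- cells are called ime4 here, and the labels state neither ploidy, mating type nor the number of clones.

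Autophagy encloses cytoplasm or chosen organelles in a double membrane and delivers them to the vacuole, the yeast counterpart of the lysosome, where lipases and peptidases break them down. In yeast it is held at a low rate during growth in rich medium, is induced by starvation, and is required for sporulation. The Atg1 kinase complex starts the process, a phosphatidylinositol 3-kinase complex and the Atg9 membrane system build the enclosing membrane, ubiquitin-like conjugation systems attach Atg8 to it, and receptor proteins link particular cargo to Atg8. Levels are given as log2 intensities, which can be compared between arrays for a gene but not between genes. Differences are log2 differences between group means from a limma model of all 9 arrays, with p-values adjusted by the Benjamini-Hochberg method over 5359 probe sets and a threshold of 0.05.

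The deleted gene was checked first. IME4 read 2.54 and 2.14 in ime4 in SPO, 7.14, 7.13 and 7.10 in WT in SPO, 2.29 and 2.43 in ime4 in YPD, and 5.35 and 5.35 in WT in YPD. All 4 ime4 values lay under the background level, a log2 intensity of 3.01 to 3.25 depending on the array. The difference was -4.79 in SPO (limma, adjusted p = 2.90e-09) and -2.99 in YPD (adjusted p = 1.09e-07). The genotypes also differed in genes that mark mating type. All 8 a-type genes examined were lower in ime4 and all 6 alpha-type genes were higher, in both media. Intensities were also summed over each list on the linear scale, where the brightest genes weigh most. The summed a-type intensity was 289 to 290.1 in ime4 in SPO, 3145 to 3269 in WT in SPO, 142.6 to 154.9 in ime4 in YPD, and 3828 to 3956 in WT in YPD. The summed alpha-type intensity was 2125 to 2212 in ime4 in SPO, 290.6 to 311.5 in WT in SPO, 8696 to 8803 in ime4 in YPD, and 367.2 to 390.2 in WT in YPD. Of the a-type genes, MFA2 and HMRA1 were at background on both ime4 arrays in YPD. The summed intensities of the genotypes did not overlap in either medium, so the difference in mating-type genes went with genotype on every array. Its part in any result on ime4 against WT cannot be told apart on these arrays and was not tested.

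In sporulation medium nearly the whole set was expressed more strongly than in rich medium, in both genotypes. In WT, 38 of the 39 genes were higher in SPO, where 46.9% of all probe sets were higher, and 1, ATG27, was lower, where 43.1% of all were lower. The median difference was 1.55 over the set and 0.05 over all probe sets. A rise of at least 2-fold was called for 32 of the 39 genes, against 22.1% of all probe sets. In ime4, 37 genes were higher in SPO, against 44% of all probe sets, ATG27 was again lower, against 42% of all, and ATG18 did not pass the threshold. The median difference in ime4 was 1.03 over the set and 0.04 over all probe sets, and 20 genes rose at least 2-fold, against 17.2% of all. Because RNA was taken from whole cultures, fewer cells with a given response and less RNA per cell cannot be told apart.

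**Figure D1:**
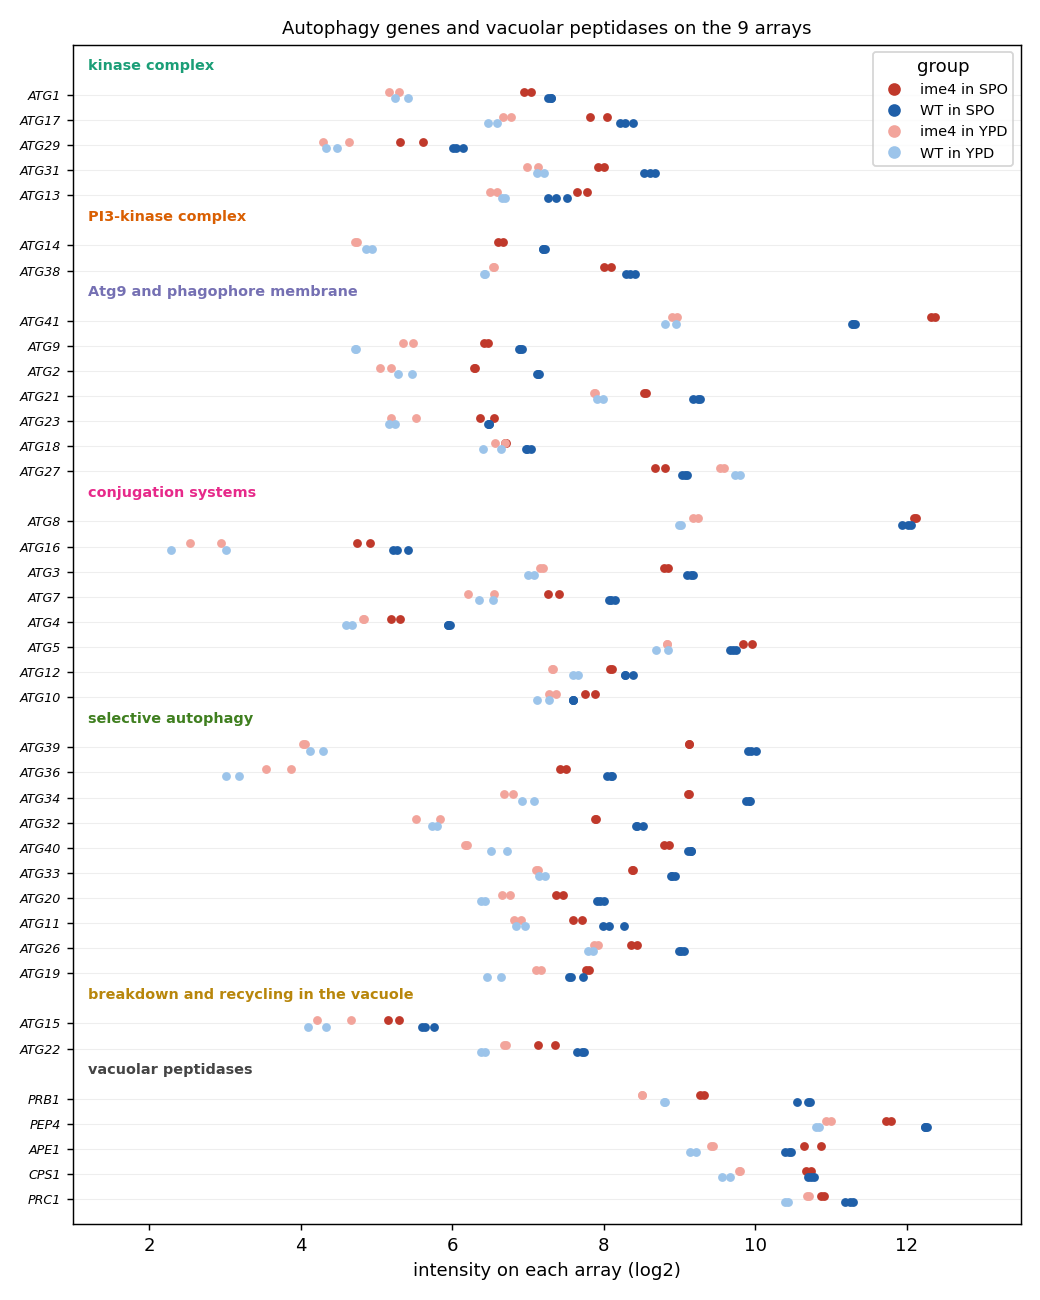
Log2 intensity of each of the 39 genes on each of the 9 arrays (x axis), with 1 line per gene, grouped by role and ordered within a role by the SPO against YPD difference in WT. Points are arrays. SPO points lie to the right of YPD points within each genotype, except for ATG27, where they lie to the left, and for ATG18 in ime4, where the media overlap.

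Most of the set was lower in ime4 than in WT in sporulation medium. There, 30 of the 39 genes were lower in ime4 than in WT, against 39.4% of all probe sets, 5 were higher (ATG41, ATG13, APE1, ATG10 and ATG5), against 34.1% of all, and 4 did not pass the threshold (ATG8, ATG19, ATG23 and CPS1). The median difference between ime4 and WT in SPO was -0.45 over the set and -0.04 over all probe sets. In that comparison 1 gene, PRB1, was lower by at least 2-fold, against 1.72% of all probe sets, and 1, ATG41, was higher by at least 2-fold, against 5.71%. In YPD, 10 genes were higher in ime4, against 21.3% of all probe sets, 7 were lower, against 18.7%, and 22 did not pass the threshold. The median difference in YPD was 0.08 over the set and 0.02 over all probe sets, and none of the 39 reached 2-fold, against 0.97% of all probe sets higher and 0.914% lower by that much.

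**Figure D2:**
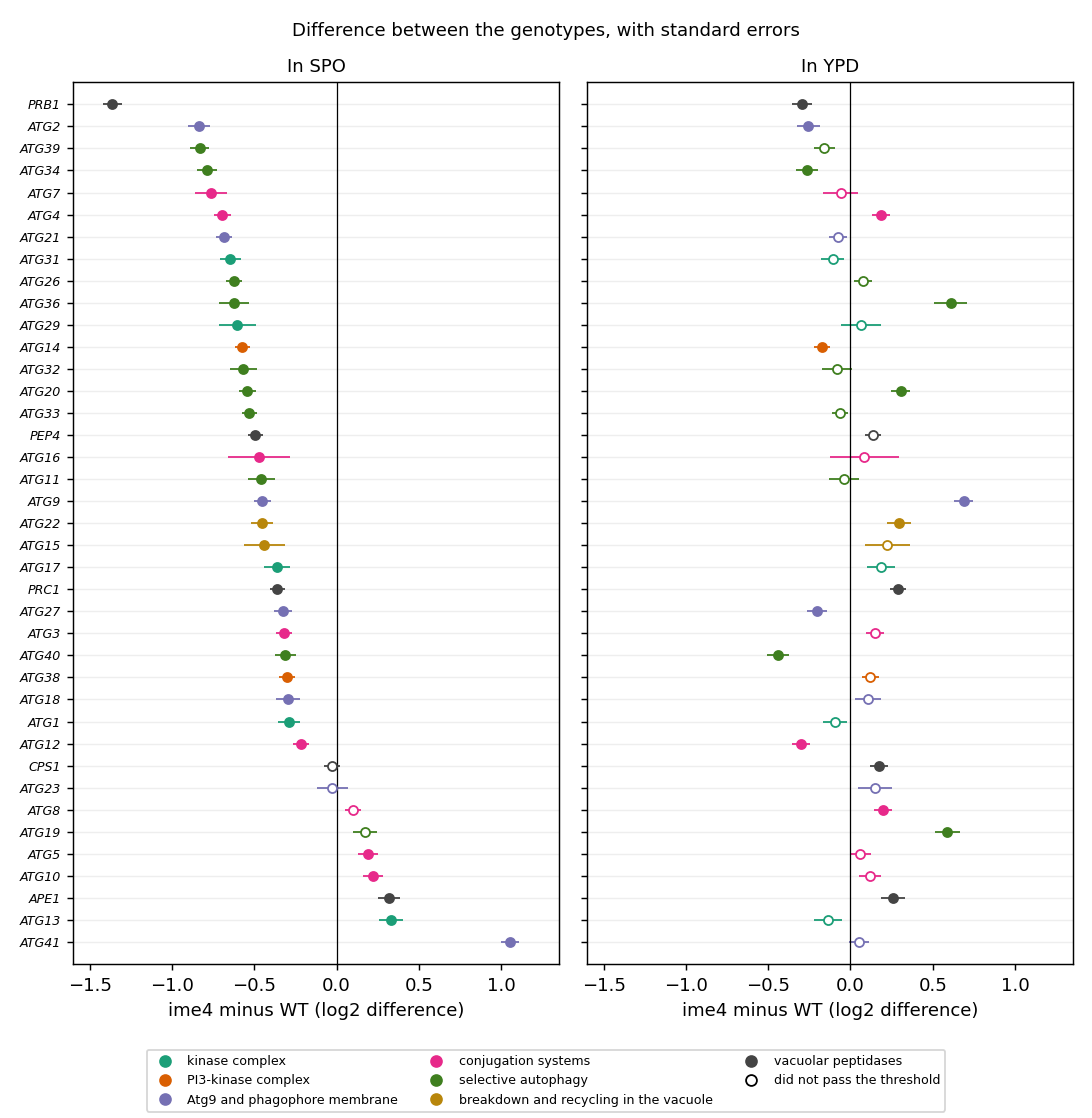
Difference between ime4 and WT (x axis, log2, with standard errors) for each of the 39 genes in SPO (left) and in YPD (right), in the order of the difference in SPO. Filled points passed the adjusted p threshold of 0.05 and open points did not. In SPO most genes lie left of 0 with PRB1 and ATG41 at the ends, and in YPD the points spread on both sides of 0.

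Counts by role stand beside shares over all probe sets. For SPO against YPD these shares were 44% higher and 42% lower in ime4, and 46.9% higher and 43.1% lower in WT. For ime4 against WT in SPO they were 34.1% higher and 39.4% lower. The 5 genes of the Atg1 kinase complex, which receives the starvation signal, were all higher in SPO than in YPD in both genotypes. Their median difference was 1.17 in ime4 and 1.66 in WT. ATG1, the protein kinase that gives the complex its name, read 7.05 and 6.95 in ime4 in SPO, 7.30, 7.26 and 7.30 in WT in SPO, 5.30 and 5.16 in ime4 in YPD, and 5.24 and 5.42 in WT in YPD. It was lower in ime4 in SPO, with a difference of -0.29 (SE 0.0662, adjusted p = 0.00319). The scaffold genes ATG17, ATG29 and ATG31 were lower in ime4 than in WT in SPO, with differences of -0.36, -0.60 and -0.65. Under quantile normalization the ATG29 difference was -0.91, and its log2 rise in ime4 was 0.37 in place of 0.99. ATG13, the regulatory subunit that TORC1 phosphorylates in fed cells, went the other way. It read 7.78 and 7.65 in ime4 in SPO, 7.27, 7.37 and 7.51 in WT in SPO, 6.50 and 6.60 in ime4 in YPD, and 6.66 and 6.70 in WT in YPD. The ime4 arrays were the highest in SPO and the lowest in YPD, so that its log2 rise was 1.17 in ime4 and 0.70 in WT. The genotype difference in SPO was 0.33 (SE 0.0756, adjusted p = 0.00315), and in YPD it did not pass the threshold (-0.14, adjusted p = 0.222).

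The 2 genes of the set in the phosphatidylinositol 3-kinase complex, ATG14 and ATG38, rose in SPO in both genotypes and were lower in ime4 in SPO. Its other subunit genes VPS34, VPS15 and VPS30 did not match the rule. In SPO, VPS34 (-0.15) and VPS30 (-0.20) were lower in ime4, and VPS15 was higher (0.16, adjusted p = 0.0240). VPS15 did not pass the threshold for SPO against YPD in WT (0.09, adjusted p = 0.145). ATG14, the subunit that directs the complex to the site of membrane formation, read 6.67 and 6.61 in ime4 in SPO, 7.23, 7.20 and 7.20 in WT in SPO, 4.74 and 4.72 in ime4 in YPD, and 4.94 and 4.87 in WT in YPD. The WT arrays were above the ime4 arrays in both media, with differences of -0.57 (SE 0.0449, adjusted p = 2.77e-06) in SPO and -0.17 (SE 0.0492, adjusted p = 0.0209) in YPD. That YPD difference was -0.11 with an adjusted p of 0.0779 when 16 was added to each intensity, and the call was also lost without replicate 1 of WT or either ime4 array in YPD (adjusted p of 0.0651 to 0.119). ATG38, which links Atg14 with the lipid kinase Vps34, differed by -0.30 in SPO.

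Among the 7 genes of the Atg9 system and the growing membrane, 6 rose and 1 fell in WT, and 5 rose and 1 fell in ime4. ATG9 (YDL149W) encodes the membrane protein carried on the vesicles that seed the new membrane. It read 6.48 and 6.42 in ime4 in SPO, 6.88, 6.92 and 6.89 in WT in SPO, 5.35 and 5.48 in ime4 in YPD, and 4.72 and 4.73 in WT in YPD. The ime4 arrays were below the WT arrays in SPO and above them in YPD, with no overlap in either medium. Its genotype difference was -0.45 (SE 0.0507, adjusted p = 3.18e-05) in SPO and 0.69 (SE 0.0556, adjusted p = 2.02e-05) in YPD, the largest of the 39 in YPD. The rise in SPO was 2.05-fold in ime4 and 4.51-fold in WT, and the difference between those responses was -1.14 (SE 0.0752, adjusted p = 2.22e-06).

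ATG41 (YPL250C), also called ICY2, encodes a protein that interacts with Atg9. It read 12.38 and 12.31 in ime4 in SPO, 11.28, 11.28 and 11.31 in WT in SPO, 8.90 and 8.97 in ime4 in YPD, and 8.96 and 8.80 in WT in YPD. Both ime4 arrays in SPO were above all 3 WT arrays, while the genotypes overlapped in YPD. The rise was 10.6-fold in ime4 and 5.32-fold in WT, the genotype difference in SPO was 1.05 (SE 0.0551, adjusted p = 2.36e-07), and the responses differed by 1.0 (SE 0.0817, adjusted p = 7.66e-06). No other gene of the set was higher in ime4 by so much in SPO.

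ATG2, which moves lipids into the growing membrane, read 6.29 and 6.30 in ime4 in SPO, 7.14, 7.13 and 7.12 in WT in SPO, 5.19 and 5.05 in ime4 in YPD, and 5.48 and 5.28 in WT in YPD. Its WT arrays were above its ime4 arrays in both media. The difference was -0.84 (SE 0.0646, adjusted p = 2.54e-06) in SPO and -0.26 (SE 0.0708, adjusted p = 0.0189) in YPD, where it lost the call without replicate 1 of WT (adjusted p = 0.125) or replicate 2 of ime4 (adjusted p = 0.128). ATG27, a membrane protein needed for Atg9 transport, was the 1 gene that fell. It read 8.81 and 8.67 in ime4 in SPO, 9.10, 9.07 and 9.04 in WT in SPO, 9.59 and 9.53 in ime4 in YPD, and 9.79 and 9.73 in WT in YPD, and every SPO array was below every YPD array. The SPO minus YPD difference was -0.82 (SE 0.0591, adjusted p = 5.86e-07) in ime4 and -0.69 (SE 0.0540, adjusted p = 7.89e-07) in WT. Of the phosphoinositide-binding genes, ATG21 was lower in ime4 in SPO (-0.68) and ATG18 rose in WT (0.48) but not past the threshold in ime4 (0.07, adjusted p = 0.414). ATG23, another gene of Atg9 transport, had a log2 rise of 1.10 in ime4 and 1.27 in WT, and its genotypes overlapped in SPO.

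**Figure D3:**
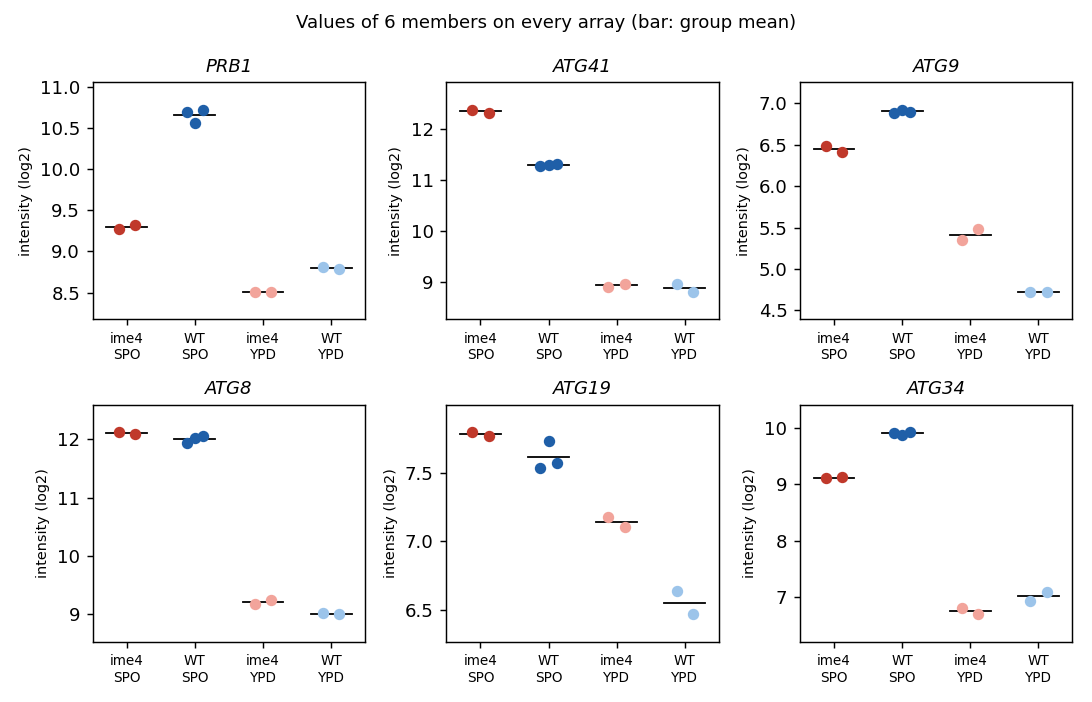
Log2 intensity (y axis, scaled separately for each gene) of PRB1, ATG41, ATG9, ATG8, ATG19 and ATG34 on every array, by group (x axis), with a bar at each group mean. In SPO the ime4 points lie under the WT points for PRB1, ATG9 and ATG34 and over them for ATG41, ATG8 and ATG19, and the ATG8 and ATG19 differences did not pass the threshold.

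All 8 genes of the conjugation systems rose in both genotypes, with a median difference of 1.0 in ime4 and 1.48 in WT. ATG8 (YBL078C), the ubiquitin-like protein that is attached to lipid in the membrane and is a standard marker of autophagy in yeast, read 12.12 and 12.09 in ime4 in SPO, 11.94, 12.02 and 12.05 in WT in SPO, 9.17 and 9.25 in ime4 in YPD, and 9.03 and 9.0 in WT in YPD. Every SPO array was more than 2 log2 units above every YPD array. The rise was 7.43-fold in ime4 and 7.95-fold in WT, and the difference between these responses was -0.10 (SE 0.0739, adjusted p = 0.272). In SPO the genotypes differed by 0.10 (SE 0.0498, adjusted p = 0.0921), although both ime4 arrays were above the 3 WT arrays. That difference passed the threshold under median centring (0.14, adjusted p = 0.0329) and with an intensity trend (adjusted p = 0.0408).

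Enzymes that act on Atg8 were lower in ime4 in SPO. ATG7, the E1-like enzyme of both conjugation systems, read 7.26 and 7.42 in ime4 in SPO, 8.15, 8.07 and 8.09 in WT in SPO, 6.56 and 6.22 in ime4 in YPD, and 6.53 and 6.36 in WT in YPD. The genotypes overlapped in YPD and were apart in SPO, with a difference of -0.76 (SE 0.0988, adjusted p = 8.45e-05). ATG4, the protease that processes Atg8 and releases it from lipid, read 5.32 and 5.19 in ime4 in SPO, 5.94, 5.94 and 5.97 in WT in SPO, 4.82 and 4.83 in ime4 in YPD, and 4.68 and 4.60 in WT in YPD. Its WT arrays in SPO were about 0.6 log2 units or more above its ime4 arrays in SPO. The difference was -0.69 (SE 0.0503, adjusted p = 1.65e-06) in SPO, and -1.05 under quantile normalization. The log2 rise of ATG4 in ime4, 0.43 (SE 0.0551, adjusted p = 4.57e-05), depended on the scaling: under quantile normalization it was -0.17 (adjusted p = 0.0429). ATG3, the E2-like enzyme that attaches Atg8 to lipid, was lower in ime4 in SPO by a smaller amount (-0.32).

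The Atg5, Atg12 and Atg16 proteins form the complex that directs Atg8 to the membrane, and Atg10 is the enzyme that joins Atg12 to Atg5. ATG16 read 4.75 and 4.92 in ime4 in SPO, 5.22, 5.42 and 5.28 in WT in SPO, 2.54 and 2.94 in ime4 in YPD, and 2.29 and 3.02 in WT in YPD. All 4 YPD values were at background, so its rise was at least 3.12-fold in ime4 and at least 4.20-fold in WT. The fitted rises were 4.27-fold in ime4 (adjusted p = 6.85e-06) and 6.28-fold in WT (adjusted p = 4.21e-07). Its replicates spread more widely than those of any other gene of the set in WT in YPD (SD 0.513, n = 2), and its genotype difference in SPO, -0.47 (SE 0.191, adjusted p = 0.0487), lost the call under median centring (adjusted p = 0.0647) and without any 1 of the 5 SPO arrays (adjusted p up to 0.214). Under quantile normalization that difference was -0.77 (adjusted p = 0.0181). ATG12 was lower in ime4 in SPO (-0.22) and in YPD (-0.30). ATG5 and ATG10 were slightly higher in ime4 in SPO, by 0.19 and 0.22. Both calls were lost without replicate 2 of ime4 in SPO, with adjusted p-values of 0.149 for ATG5 and 0.0973 for ATG10, and the ATG5 call also without replicate 1 of WT in SPO (adjusted p = 0.0525).

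The 10 genes grouped here under selective autophagy encode receptors for particular cargo and other proteins, such as the sterol glucosyltransferase of ATG26. They included ATG39 and ATG36, which had the largest rises of the set in both genotypes. The log2 rises of the 10 went down to 0.50 in ime4 and 1.06 in WT. All 10 were higher in SPO in both genotypes, against 44% of all probe sets in ime4 and 46.9% in WT. Their median difference was 1.73 in ime4 and 2.12 in WT, and that of ATG14 and ATG38 was 1.71 and 2.12. In SPO 9 of the 10 were lower in ime4 than in WT, against 39.4% of all probe sets and 30 of the 39 genes. ATG39 (YLR312C), the receptor for parts of the nuclear envelope and the perinuclear endoplasmic reticulum, read 9.12 and 9.12 in ime4 in SPO, 9.90, 10.01 and 9.94 in WT in SPO, 4.04 and 4.06 in ime4 in YPD, and 4.29 and 4.12 in WT in YPD. The SPO arrays were about 5 log2 units above the YPD arrays. Its rise was 33.6-fold in ime4 (adjusted p = 7.55e-12) and 53.6-fold in WT (adjusted p = 1.07e-12), which stood at the 99.5th and 99.4th percentile of all probe sets. In SPO the ime4 arrays were lower, with a difference of -0.83 (SE 0.0592, adjusted p = 1.48e-06).

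ATG36 (YJL185C), the receptor for peroxisomes, read 7.51 and 7.42 in ime4 in SPO, 8.11, 8.05 and 8.10 in WT in SPO, 3.88 and 3.55 in ime4 in YPD, and 3.19 and 3.02 in WT in YPD. Both WT values in YPD were at background, while both ime4 values in YPD were above it. The rise was 13.4-fold in ime4 (adjusted p = 5.70e-10) and at least 28.8-fold in WT, where the fitted value was 31.6-fold (adjusted p = 2.17e-11). The ime4 arrays were lower than the WT arrays in SPO (-0.62, SE 0.0914, adjusted p = 0.000201). They were higher in YPD by at least 1.39-fold, the fitted value being 1.53-fold (adjusted p = 0.00133). The responses differed by -1.10 with WT in YPD set at the background level, the fitted value being -1.23 (SE 0.136, adjusted p = 4.56e-05).

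Receptors for mitochondria and the endoplasmic reticulum also rose. ATG32, the receptor for mitochondria, read 7.89 and 7.89 in ime4 in SPO, 8.51, 8.42 and 8.44 in WT in SPO, 5.52 and 5.85 in ime4 in YPD, and 5.80 and 5.73 in WT in YPD. Its genotypes overlapped in YPD and were apart in SPO (-0.57, SE 0.0833, adjusted p = 0.000200), with a rise of 4.61-fold in ime4 and 6.46-fold in WT. ATG33, a mitochondrial membrane protein that also serves mitophagy, was lower in ime4 in SPO by a like amount (-0.53). ATG40, the receptor for the endoplasmic reticulum, read 8.80 and 8.86 in ime4 in SPO, 9.15, 9.15 and 9.12 in WT in SPO, 6.20 and 6.16 in ime4 in YPD, and 6.73 and 6.52 in WT in YPD. Its WT arrays were above its ime4 arrays in both media, with differences of -0.31 (SE 0.0623, adjusted p = 0.00145) in SPO and -0.44 (SE 0.0682, adjusted p = 0.000974) in YPD, the lowest of the 39 in YPD. Its log2 rise was 2.65 in ime4 and 2.52 in WT, and those responses did not differ past the threshold (0.13, adjusted p = 0.247).

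Receptors of the cytoplasm-to-vacuole pathway, which carries hydrolases to the vacuole in growing cells, gave unlike patterns. ATG19 (YOL082W), the receptor for aminopeptidase I, and ATG34 (YOL083W), a related receptor that carries alpha-mannosidase during starvation, are neighbouring genes on 1 chromosome. ATG19 read 7.80 and 7.77 in ime4 in SPO, 7.54, 7.73 and 7.57 in WT in SPO, 7.17 and 7.11 in ime4 in YPD, and 6.64 and 6.46 in WT in YPD. In YPD the ime4 arrays were higher, by 0.59 (SE 0.0783, adjusted p = 0.000421), and in SPO the difference was 0.17 (SE 0.0715, adjusted p = 0.0530), which passed the threshold under quantile normalization (adjusted p = 0.0253) and median centring (adjusted p = 0.0188). ATG34 read 9.11 and 9.13 in ime4 in SPO, 9.92, 9.88 and 9.93 in WT in SPO, 6.80 and 6.68 in ime4 in YPD, and 6.92 and 7.09 in WT in YPD. The ime4 arrays were lower in both media, with differences of -0.79 (SE 0.0593, adjusted p = 2.10e-06) in SPO and -0.26 (SE 0.0649, adjusted p = 0.0110) in YPD. The YPD call was lost without replicate 2 of WT (adjusted p = 0.0723) or replicate 2 of ime4 (adjusted p = 0.0779). ATG34 rose 5.20-fold in ime4 and 7.49-fold in WT, against 1.56-fold and 2.09-fold for ATG19.

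ATG20, a sorting nexin that acts in selective autophagy, read 7.46 and 7.37 in ime4 in SPO, 7.92, 8.01 and 7.96 in WT in SPO, 6.77 and 6.66 in ime4 in YPD, and 6.38 and 6.43 in WT in YPD. It was lower in ime4 in SPO (-0.54, SE 0.0541, adjusted p = 1.44e-05) and higher in ime4 in YPD (0.31, SE 0.0592, adjusted p = 0.00323), with no overlap in either medium. ATG11, the scaffold that binds cargo receptors, differed by -0.46 in SPO, and ATG26, a sterol glucosyltransferase, by -0.62.

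Both ATG genes that act inside the vacuole rose in SPO and were lower in ime4 there. ATG15, the lipase that opens delivered membranes, differed by -0.44 in SPO (-0.77 under quantile normalization, adjusted p = 0.000187), and ATG22, which exports amino acids from the vacuole, by -0.45. The ATG15 call in SPO was lost without replicate 1 of ime4 in SPO (adjusted p = 0.0817). Its log2 rise in ime4, 0.79, fell short of the threshold under quantile normalization (0.12, adjusted p = 0.363).

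The 5 peptidase genes rose in SPO in both genotypes, with a median difference of 0.80 in ime4 and 1.26 in WT. PRB1 (YEL060C) encodes proteinase B, a serine protease of the vacuole. It read 9.27 and 9.32 in ime4 in SPO, 10.69, 10.55 and 10.72 in WT in SPO, 8.51 and 8.51 in ime4 in YPD, and 8.81 and 8.79 in WT in YPD. The ime4 arrays were below the WT arrays in both media and by far more in SPO. The difference was -1.36 (SE 0.0560, adjusted p = 5.92e-08) in SPO, a level 2.57-fold lower in ime4, and -0.29 (SE 0.0613, adjusted p = 0.00488) in YPD. The SPO difference, the lowest of the 39, stood at percentile 0.653 of all probe sets. PRB1 rose 1.72-fold in ime4 and 3.61-fold in WT, and these responses differed by -1.07 (SE 0.0830, adjusted p = 5.77e-06).

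PEP4 (YPL154C) encodes proteinase A, which activates the other vacuolar zymogens. It read 11.73 and 11.79 in ime4 in SPO, 12.27, 12.25 and 12.24 in WT in SPO, 11.0 and 10.93 in ime4 in YPD, and 10.85 and 10.81 in WT in YPD. The ime4 arrays were lower in SPO (-0.49, SE 0.0450, adjusted p = 7.74e-06), and in YPD the difference of 0.14 (adjusted p = 0.0519) did not pass the threshold. That YPD difference passed it under quantile normalization (0.15, adjusted p = 0.0317) and with an intensity trend (adjusted p = 0.0154). It also passed without the dimmest 25% of probe sets (adjusted p = 0.0381) and with 16 added to each intensity (adjusted p = 0.0410). PRC1 (YMR297W), which encodes carboxypeptidase Y, read 10.87 and 10.90 in ime4 in SPO, 11.29, 11.26 and 11.19 in WT in SPO, 10.71 and 10.68 in ime4 in YPD, and 10.43 and 10.39 in WT in YPD. It was lower in ime4 in SPO (-0.36, SE 0.0464, adjusted p = 8.30e-05) and higher in ime4 in YPD (0.29, SE 0.0508, adjusted p = 0.00198), with no overlap in either medium, so that its rise was 1.14-fold in ime4 and 1.79-fold in WT.

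APE1 (YKL103C), which encodes aminopeptidase I, the main cargo of the cytoplasm-to-vacuole pathway, was higher in ime4 in both media. It read 10.64 and 10.87 in ime4 in SPO, 10.39, 10.47 and 10.45 in WT in SPO, 9.45 and 9.42 in ime4 in YPD, and 9.13 and 9.21 in WT in YPD. The difference was 0.32 (SE 0.0661, adjusted p = 0.00176) in SPO and 0.26 (SE 0.0724, adjusted p = 0.0191) in YPD, and the YPD call was lost without replicate 1 of WT (adjusted p = 0.103), replicate 1 of ime4 (adjusted p = 0.0831) or replicate 2 of ime4 (adjusted p = 0.0600). CPS1, which encodes carboxypeptidase S, read 10.67 and 10.74 in ime4 in SPO, 10.70, 10.73 and 10.77 in WT in SPO, 9.79 and 9.80 in ime4 in YPD, and 9.67 and 9.57 in WT in YPD. Its genotypes overlapped in SPO, where the difference was -0.03 (SE 0.0490, adjusted p = 0.624). Its YPD difference was 0.18 (SE 0.0536, adjusted p = 0.0283). That call was lost under median centring (adjusted p = 0.0525) and without either ime4 array in YPD (adjusted p up to 0.102) or replicate 2 of WT in YPD (adjusted p = 0.159).

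The responses to SPO were then compared between genotypes for the set as a whole. The response differed past the threshold for 29 of the 39 genes, against 64.1% of all probe sets. It was more negative in ime4 for 27, against 34.6% of all probe sets, and more positive for 2, ATG41 and ATG13, against 29.5% of all. The median difference between the responses was -0.49 over the set and -0.05 over all probe sets. The median over the set was -0.47 with values of ATG16 and ATG36 under background raised to that level. Figures over all strongly induced probe sets, the set included, were of similar size. Among 1183 probe sets called at least 2-fold higher in SPO in WT, 69.1% had a more negative response in ime4, with a median difference of -0.48, and of the 32 genes of the set that did so, 78.1% had one, with a median of -0.54. The mean response over those 32 genes was 1.52 in ime4 and 2.02 in WT, a ratio of 0.754, and over the 1183 probe sets it was 1.63 in ime4 and 2.11 in WT, a ratio of 0.773. Both selections used the WT response itself, so the figures are a description and were not tested. Across the 39 genes the responses of the genotypes correlated with Pearson's r = 0.92 and Spearman's rho = 0.82, and across all 5359 probe sets with r = 0.93 and rho = 0.91. All genes of a genotype share the same arrays.

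**Figure D4:**
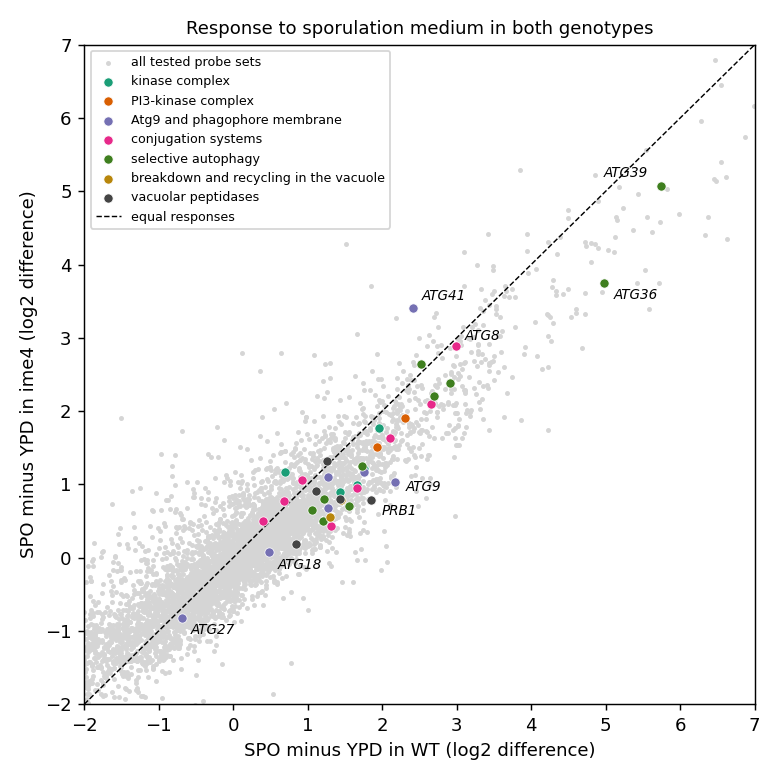
SPO minus YPD difference in WT (x axis, log2) and in ime4 (y axis, log2). Coloured points are the 39 genes by role, grey points are all tested probe sets within the plotted range, and the dashed line marks equal responses. Most coloured points lie under the line, with ATG41 above it, ATG39 and ATG36 at the far right and ATG27 below 0 on both axes.

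Other genes of the vacuole and of autophagy were examined in the same way. The counts stand beside shares over all probe sets of 44% higher and 42% lower in SPO in ime4, and 46.9% higher and 43.1% lower in WT. All 6 other vacuolar hydrolase genes were higher in SPO in WT, and 5 of 6 in ime4, with medians of 1.10 in ime4 and 1.47 in WT. AMS1, alpha-mannosidase and the cargo of Atg34 and Atg19, read 8.50 and 8.49 in ime4 in SPO, 9.48, 9.53 and 9.49 in WT in SPO, 5.83 and 5.65 in ime4 in YPD, and 5.23 and 5.61 in WT in YPD. It rose 6.75-fold in ime4 and 16.9-fold in WT, and its genotype difference in SPO was -1.0 (SE 0.0983, adjusted p = 1.28e-05). ATH1, acid trehalase, had a log2 rise of 2.65 in ime4 and 3.10 in WT, and PHO8, the vacuolar alkaline phosphatase used in assays of autophagy, of 1.41 in ime4 and 1.87 in WT. In SPO 5 of the 6 were lower in ime4, against 39.4% of all probe sets.

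All 3 cytosolic inhibitors of the peptidases examined were higher in SPO in both genotypes. PAI3, the inhibitor of proteinase A, read 6.77 and 6.55 in ime4 in SPO, 7.73, 7.71 and 7.63 in WT in SPO, 3.71 and 3.71 in ime4 in YPD, and 3.45 and 3.39 in WT in YPD. Its genotype difference in SPO was -1.03 (SE 0.0655, adjusted p = 7.47e-07). PBI2, the inhibitor of proteinase B, had a log2 rise of 1.52 in ime4 and 1.87 in WT, and TFS1, the inhibitor of carboxypeptidase Y, of 1.45 in ime4 and 1.86 in WT. Each of the 3 was lower in ime4 in SPO, with a median difference of -0.50.

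Most genes of the vacuolar-type proton pump, which acidifies the vacuole and other organelles, were lower in SPO. Its 15 genes here include VPH1 and STV1, the subunit isoforms of the vacuole and of the Golgi and endosomes. Of the 15, 13 were lower and 1 higher in SPO in ime4, and 14 were lower and none higher in WT, with medians of -0.62 in ime4 and -0.71 in WT. Under quantile normalization the counts were 12 lower and 2 higher in ime4, and 13 lower and 1 higher in WT. VMA8, a subunit of the pump's peripheral sector, had the lowest difference. It read 9.26 and 9.16 in ime4 in SPO, 9.13, 9.09 and 9.08 in WT in SPO, 10.80 and 10.78 in ime4 in YPD, and 10.82 and 10.77 in WT in YPD, and its SPO minus YPD difference was -1.58 (SE 0.0524, adjusted p = 2.35e-09) in ime4 and -1.69 (SE 0.0479, adjusted p = 3.54e-10) in WT.

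Amino acid transporters of the vacuolar membrane were mixed, with 5 of 11 higher and 1 lower in SPO in ime4, and 9 higher and 2 lower in WT. Of those 9, 1 was above background on only 1 of the 3 WT arrays in SPO and on no other array. RTC2, an exporter of cationic amino acids, rose 9.76-fold in ime4 and 23.1-fold in WT, and was lower in ime4 in SPO (-1.26, SE 0.0841, adjusted p = 9.79e-07). AVT3, which exports neutral amino acids, was also lower in ime4 in SPO (-1.0, adjusted p = 4.28e-07). YPQ1 (0.75, adjusted p = 3.33e-07) and VBA2 (0.70, adjusted p = 3.63e-06) were higher in ime4 in SPO. Of the 11 transporter genes, 7 were lower and 2 higher in ime4 in SPO, against 39.4% and 34.1% of all probe sets. YPQ1 was lower in SPO than in YPD in both genotypes (-1.36 in ime4, -1.82 in WT). Of 12 genes for fusion with the vacuole, 8 were higher and 3 lower in SPO in ime4, and 8 higher and 2 lower in WT. VPS41, a subunit of the HOPS tethering complex, read 7.80 and 7.87 in ime4 in SPO and 6.89, 6.92 and 6.88 in WT in SPO, a difference of 0.94 (SE 0.0548, adjusted p = 4.31e-07), whereas the vacuolar SNARE gene NYV1 was lower in ime4 in SPO (-0.50, adjusted p = 2.59e-05). Among 8 autophagy genes under other names, 7 were higher and 1 lower in SPO in ime4, and 5 higher and 2 lower in WT. Their medians were 0.45 in ime4 and 0.51 in WT. SNX4 had a log2 rise of 1.19 in ime4 and 1.74 in WT, and VPS30 of 0.91 in ime4 and 1.10 in WT. VAC8 was lower in SPO in both genotypes (-0.68 in ime4, -0.32 in WT), and TRS85 in WT (-0.25). Of these 8 genes, 3 were lower and 1 higher in ime4 in SPO, against 39.4% and 34.1% of all probe sets. Under median centring 1 was lower and 1 higher. Of 10 genes that sort vacuolar precursors, 5 were higher and 4 lower in SPO in ime4, and 5 higher and 2 lower in WT. These counts were close to the shares over all probe sets, and the WT counts became 4 higher and 3 lower under either other scaling.

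**Figure D5:**
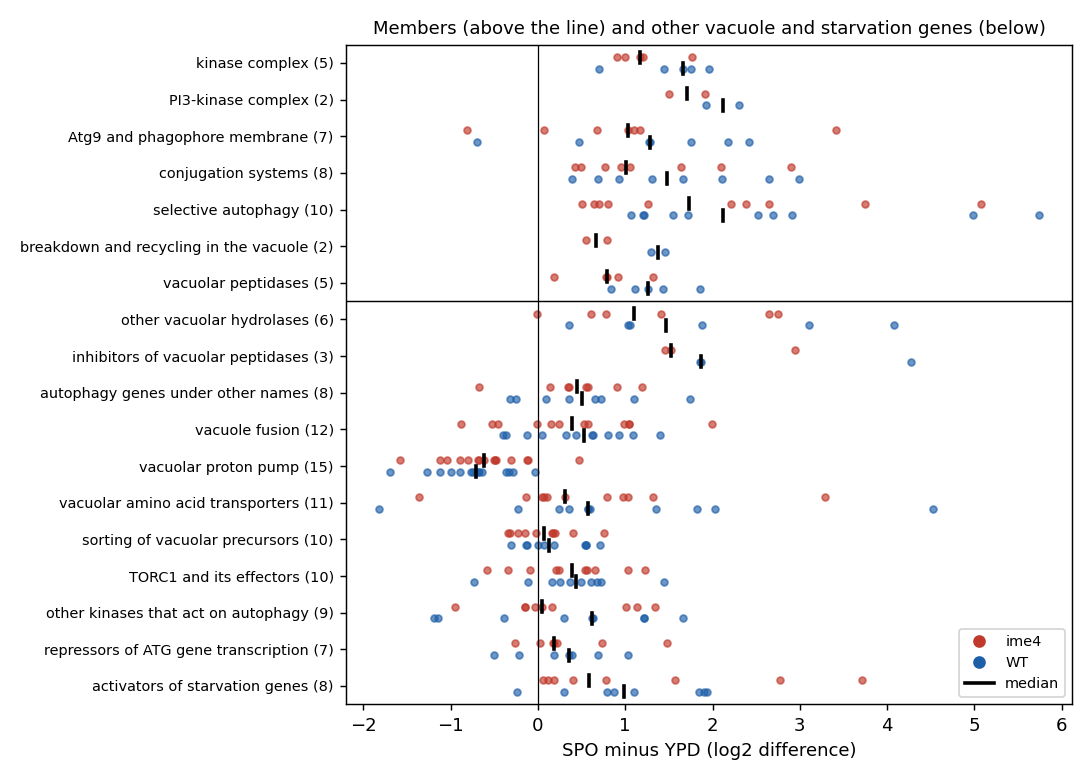
SPO minus YPD difference (x axis, log2) in ime4 (red) and WT (blue) for the 39 genes by role, above the line, and for other genes of the vacuole, of TORC1, of other kinases and of transcription, below it, with the number of genes in brackets. Points are genes and black bars are medians. The medians of the roles lie at 0.67 or above, and that of the proton pump lies below 0 in both genotypes.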

How the data were processed

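The labels give 9 Affymetrix arrays in 4 groups of genotype and medium and call them biological replicates. The authors deposited 1 table of intensity values on a linear scale, normalised by RMA per the submitters' processing notes. RMA's software and settings are not given in the sources used here. Of 9676 probe sets in the table, 6772 had a gene symbol. After leaving out 1412 probe sets of another species and 1 with several symbols, 5359 probe sets of 5311 genes were tested. Symbols came from the platform annotation and were updated through RefSeq gene tables. No genome or sequence was used here. The annotation did not show which part of IME4 its probe set reads.

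Intensities were taken to log2. A model of 4 group means was fitted in R 4.3.3 with limma 3.58.1 (lmFit and eBayes), and 5 two-sided contrasts were tested with Benjamini-Hochberg adjustment over 5359 probe sets. Limma's tests were first run on simulated data. Background on an array was the 95th percentile of the other species' probe sets. A group with all its arrays under it gives a bound on its difference from a group above it. The bound was computed from the higher of that level and the signal. Replicates correlated at r = 0.998 to 0.999, and the number of arrays limits the precision. Same-numbered arrays of different groups showed no shared deviation (correlations of -0.02 to 0.03). This cannot show whether the cultures were paired, and the labels state no pairing. Values on every array are given for the 6 members with the largest difference in WT SPO against YPD, in ime4 against WT in SPO and in the response, for the 4 largest in YPD, for the 5 peptidases and for the member that fell. Of other lists, up to 4 genes with the smallest p were named. Array values of ATG1, ATG13 and ATG14 were added after they were seen. The members and all gene lists were chosen with earlier results of these data known. The alternatives were quantile normalization, median centring, leaving out the dimmest 25% of probe sets, adding 16 to each intensity, an intensity trend, a replicate block and leaving out each array.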

Additional observations from a re-analysis of the deposited data

Results flagged for a closer look

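For 29 of the 39 genes the SPO against YPD difference was not the same in ime4 and in WT by the interaction term of the limma model. Each value here is the log2 difference in ime4 minus that in WT. For the kinase complex it was 0.47 for ATG13, -0.55 for ATG17, -0.67 for ATG29 and -0.54 for ATG31. In the phosphatidylinositol 3-kinase complex it was -0.40 for ATG14 and -0.42 for ATG38. Among genes of the Atg9 system and the membrane it was 1.0 for ATG41, -1.14 for ATG9, -0.61 for ATG21, -0.58 for ATG2 and -0.40 for ATG18. The conjugation genes gave -0.88 for ATG4, -0.70 for ATG7 and -0.47 for ATG3. Selective autophagy genes gave -1.23 for ATG36 (-1.10 at its background bound), -0.85 for ATG20, -0.70 for ATG26, -0.67 for ATG39, -0.52 for ATG34, -0.49 for ATG32, -0.47 for ATG33, -0.42 for ATG11 and -0.42 for ATG19. Genes that act in the vacuole gave -0.75 for ATG22 and -0.66 for ATG15. The peptidases gave -1.07 for PRB1, -0.65 for PRC1, -0.63 for PEP4 and -0.20 for CPS1. Of all probe sets, 64.1% passed the same test.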

How the results depend on the processing

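For the 195 differences of single genes (39 genes in 5 comparisons), 2791 of 2875 values under the alternatives kept their direction and their side of the threshold. All 39 calls for SPO against YPD in WT held under every alternative in which the gene was tested, as did 36 of 38 in ime4 (not ATG4 and ATG15), 31 of 35 for ime4 against WT in SPO (not ATG5, ATG10, ATG15 and ATG16), 27 of 29 for the difference between responses (not ATG11 and CPS1) and 8 of 17 for ime4 against WT in YPD. The 8 that held in YPD were ATG9, ATG12, ATG19, ATG20, ATG36, ATG40, PRB1 and PRC1. Some alternatives that kept all arrays also gave calls absent from the main model. For ime4 against WT these were ATG3, ATG39 and PEP4 in YPD, and ATG8 and ATG19 in SPO. For the difference between responses they were ATG1 and ATG16. One value reversed: the SPO against YPD difference of ATG4 in ime4 was -0.17 under quantile normalization, which made 2 genes lower in that comparison in place of 1. Quantile normalization moved the median of all probe sets by -0.12 in SPO against YPD in ime4, and median centring moved it by -0.10 in WT. Differences of that size depend on the scaling, and for some single genes larger ones did too. Under quantile normalization the log2 rise in ime4 went from 0.99 to 0.37 for ATG29, from 0.43 to -0.17 for ATG4 and from 0.79 to 0.12 for ATG15.

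With each array left out in turn, ime4 against WT in SPO gave 3 to 6 genes higher and 28 to 30 lower, the lowest count of higher genes, 3, without replicate 2 of ime4 in SPO. In YPD it gave 7 to 10 higher and 4 to 7 lower, with 4 lower without replicate 1 of WT or replicate 2 of ime4 in YPD. SPO against YPD gave 37 higher and 1 lower in ime4 and 38 higher and 1 lower in WT each time, and the responses differed upward for 2 to 3 genes and downward for 25 to 27. The IME4 difference ranged from -4.98 to -4.59 in SPO and from -3.06 to -2.92 in YPD. Where 1 array of a group was left, it was assumed to vary like the other groups. With the replicate number as a block, 4 genes were higher and 30 lower in ime4 in SPO and 9 higher and 7 lower in YPD. The block ended the calls of ATG5 in SPO (adjusted p = 0.0580), of CPS1 in YPD (adjusted p = 0.0541) and of the CPS1 response difference (adjusted p = 0.0912), and made one for the ATG16 response difference (adjusted p = 0.0302). Without the dimmest 25% of probe sets, 29 of the 39 genes were left. The choice between several probe sets of a gene was not run, since each of the 39 had 1. ATG16 was at background in YPD in both genotypes and ATG36 in WT. Their rises from those groups are lower bounds, as is the ATG36 genotype difference in YPD. For ATG16 the genotype difference in YPD and the response difference are not determined. The causes of these changes were not tested.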

Other observations

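Values for genes that control autophagy from outside the set are given here. The counts stand beside shares over all probe sets of 44% higher and 42% lower in SPO in ime4, and 46.9% higher and 43.1% lower in WT, and nothing particular to these lists is read from them. UME6, a repressor of early meiotic genes that also represses ATG8, read 9.27 and 9.31 in ime4 in SPO, 8.35, 8.20 and 8.14 in WT in SPO, 7.81 and 7.82 in ime4 in YPD, and 8.10 and 8.0 in WT in YPD. Its genotype difference in SPO was 1.06 (SE 0.0657, adjusted p = 6.32e-07), and its log2 response to SPO was 1.48 in ime4 and 0.18 in WT. Of the 7 repressors of ATG genes examined, 5 were higher and 1 lower in SPO in each genotype. Under quantile normalization the counts were 3 higher and 3 lower in ime4, and 4 higher and 2 lower in WT. GAT1, a GATA activator of nitrogen-starvation genes, read 9.25 and 9.23 in ime4 in SPO, 8.59, 8.66 and 8.67 in WT in SPO, 5.66 and 5.39 in ime4 in YPD, and 6.73 and 6.87 in WT in YPD. It was higher in ime4 in SPO (0.60, SE 0.0783, adjusted p = 9.46e-05) and lower in ime4 in YPD (-1.27, SE 0.0858, adjusted p = 6.70e-06). Of the 8 regulators of starvation genes, 6 were higher and none lower in SPO in ime4, and 7 higher and 1 lower in WT. These include the GATA repressors DAL80 and GZF3 and the Gln3 inhibitor URE2. MSN4, a stress activator, was lower in ime4 in SPO (-0.95, SE 0.0691, adjusted p = 1.64e-06).

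TORC1 is the kinase complex that restrains autophagy in fed cells. Of 10 genes for TORC1, its regulators and its effectors, 7 were higher and 2 lower in SPO in ime4, and 8 higher and 1 lower in WT. Under either other scaling the counts were 6 higher and 2 lower in ime4, and 7 higher and 2 lower in WT. The 10 include NPR2 and NPR3, which encode inhibitors of TORC1. LST8, a TORC1 subunit, had a log2 rise of 1.23 in ime4 and 1.45 in WT. Of 9 genes for other kinases that act on autophagy, 4 were higher and 1 lower in SPO in ime4, and 6 higher and 3 lower in WT. The ime4 counts were 4 higher and 3 lower under quantile normalization, and 3 higher and 3 lower under median centring. Genes for 2 catalytic subunits of protein kinase A went opposite ways in ime4 against WT in SPO: TPK3 read 7.76 and 7.77 in ime4 in SPO and 6.78, 6.64 and 6.80 in WT in SPO, a difference of 1.03 (SE 0.0613, adjusted p = 4.94e-07), and TPK2 read 9.62 and 9.76 in ime4 in SPO and 10.25, 10.18 and 10.21 in WT in SPO, a difference of -0.52 (SE 0.0511, adjusted p = 1.24e-05).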
